A study of Rattus norvegicus with 8 samples.

Results

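The cytochrome P450 genes were described in fetal rat pancreatic islets on embryonic day 19. Members were all genes whose symbol is Cyp followed by a number, without Cyp51, as named by the array's annotation. They came to 68 of the 14506 genes measured, each with 1 probe set. Cyp19a1, the aromatase gene, was not analysed here. All animals were Sprague-Dawley rats. In the IUGR group (intrauterine growth restriction) the dams had surgery to restrict growth of the fetuses on embryonic day 18. In the sham group they had a control operation on the same day. Islets were taken 1 day later, and the islets of a whole litter were pooled, so each of the 8 arrays is 1 litter of 1 dam, with 4 litters per group. P-values therefore measure the spread between litters. The labels state no sex and no sorting of cells, and pooling hides differences between fetuses.

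P450 enzymes are haem proteins that insert oxygen into small molecules. Most sit in the endoplasmic reticulum and take electrons from the reductase encoded by Por, while the mitochondrial members take them from the ferredoxin encoded by Fdx1. Families Cyp1, Cyp2 and Cyp3 are known mainly for drugs and foreign compounds, Cyp4 for fatty acids and eicosanoids, and smaller families make or degrade steroids, bile acids, vitamin D and retinoic acid. Many of the drug-metabolising genes are typical of hepatocytes and come on around or after birth, and the steroid hormone genes are typical of adrenal cortex and gonad.

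All values are on the log2 scale after RMA, and a difference of 1 is 2-fold. The files give no detection call, so the floor of each array was set at the 95th percentile of 53 olfactory receptor genes (symbols Olr with a number), taken as silent in islets. A gene was called above the floor when it exceeded it in all 4 litters of at least 1 group. The floor was 6.62, 8.18, 7.66 and 7.97 in sham litters 1 to 4, and 6.69, 6.65, 6.60 and 6.72 in IUGR litters 1 to 4 (exact permutation p = 0.114, two-sided). Sham litters 2, 3 and 4 thus had a higher floor than the other 5 arrays, and their values also covered a narrower range (interquartile range 3.06 to 3.23, against 3.53 to 3.63). Islet markers were high on all arrays, with Ins2, a rat insulin gene, between 13.67 and 14.24. Ins2 lay near the highest value of each array, so it shows differences between arrays poorly. The mean of 11 listed islet endocrine markers was highest in sham litter 4 (12.56). It was at most 11.11 in the other sham litters and ran from 11.26 to 11.79 in IUGR litters. Between groups 7 of the 11 were higher in IUGR, and the median difference of the list was 0.08. Hepatocyte transcripts were present as well: Alb, which encodes albumin, was 13.92, 12.95, 13.78 and 11.69 in sham litters 1 to 4 and 13.98, 13.81, 13.95 and 13.96 in IUGR litters 1 to 4, near the array maximum (14.03 to 14.24), where differences can be compressed. The mean of 24 hepatocyte genes, Alb among them, ran from 8.77 (litter 4) to 10.80 (litter 1) in sham and from 10.75 to 12.21 in IUGR litters. All 24 were higher in IUGR by a median of 1.84, and none passed the test after adjustment, with 21 at an unadjusted p under 0.05 (limma). In bulk tissue, fewer cells of a type and less RNA per cell cannot be told apart. The hepatocyte gene Tat was not above the floor.

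Of the 68 P450 genes, 28 were above the floor and 40 were not, against 74.2% of all genes above it. All 28 passed through the IUGR litters, and 6 of them were also above the floor in all sham litters: Cyp20a1, Cyp2t1, Cyp4v3, Cyp2u1, Cyp2s1 and Cyp4f6. The other 22 passed only through the group with the lower floors, so their number supports no difference between groups. By role, the 28 comprised 13 of 38 xenobiotic genes, 7 of 12 Cyp4 genes, 3 of 6 genes of bile acids and oxysterols, 1 of 6 steroid hormone genes, 1 of 3 vitamin D genes, both retinoic acid genes and Cyp20a1, an enzyme of unassigned role. None of 5 Cyp3 genes, 6 Cyp2b genes or 3 Cyp2a genes was above it, while 4 of 5 Cyp2d genes and 4 of 6 Cyp4f genes were. In single litters the number above the floor was 28, 6, 19 and 10 in sham litters 1 to 4 and 30, 30, 33 and 32 in IUGR litters 1 to 4. These counts did not overlap between groups (exact permutation p = 0.0286, two-sided, the smallest that 4 against 4 allows). Sham litter 1, the sham litter with a floor as low as in the IUGR litters, had 28. Over all 14506 genes, 7667 were above the floor in all sham litters and 10763 in all IUGR litters. The shift was thus not particular to P450 genes, and the litter counts are no result about the family. The part of the floor in the litter counts was not tested.

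Cyp2e1, which oxidises ethanol and acetone, was just inside the floor, at 6.49, 6.41, 6.60 and 6.20 in sham litters and 7.40, 6.69, 6.90 and 6.79 in IUGR litters. Cyp26a1 was just inside as well, with IUGR values of 6.87, 6.75, 6.72 and 7.01. Cyp1a2 was just outside, between 6.49 and 6.68 in IUGR litters and between 6.55 and 6.89 in sham litters. Cyp2a1 was also outside, although IUGR litter 4 reached 7.85. With all 1105 olfactory receptor genes as the reference 31 P450 genes were above the floor, the 28 and also Cyp1a2, Cyp27b1 and Cyp2a1.

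Several P450 genes, some enzymes of adult liver among them, stayed at the bottom of the scale in every litter. Cyp7a1, the rate-limiting enzyme of bile acid synthesis, lay between 5.48 and 5.78. Cyp2c11, a drug oxidase of adult male liver, lay between 5.27 and 5.65, and Cyp3a2 between 5.44 and 5.83. Cyp1a1, the classical target of the aryl hydrocarbon receptor, lay between 5.64 and 5.90. The plot of levels by litter shows the 28 genes that were above the floor. Values of different probe sets depend on their probes, so their order is no order of transcript amounts.

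**Figure D1:**
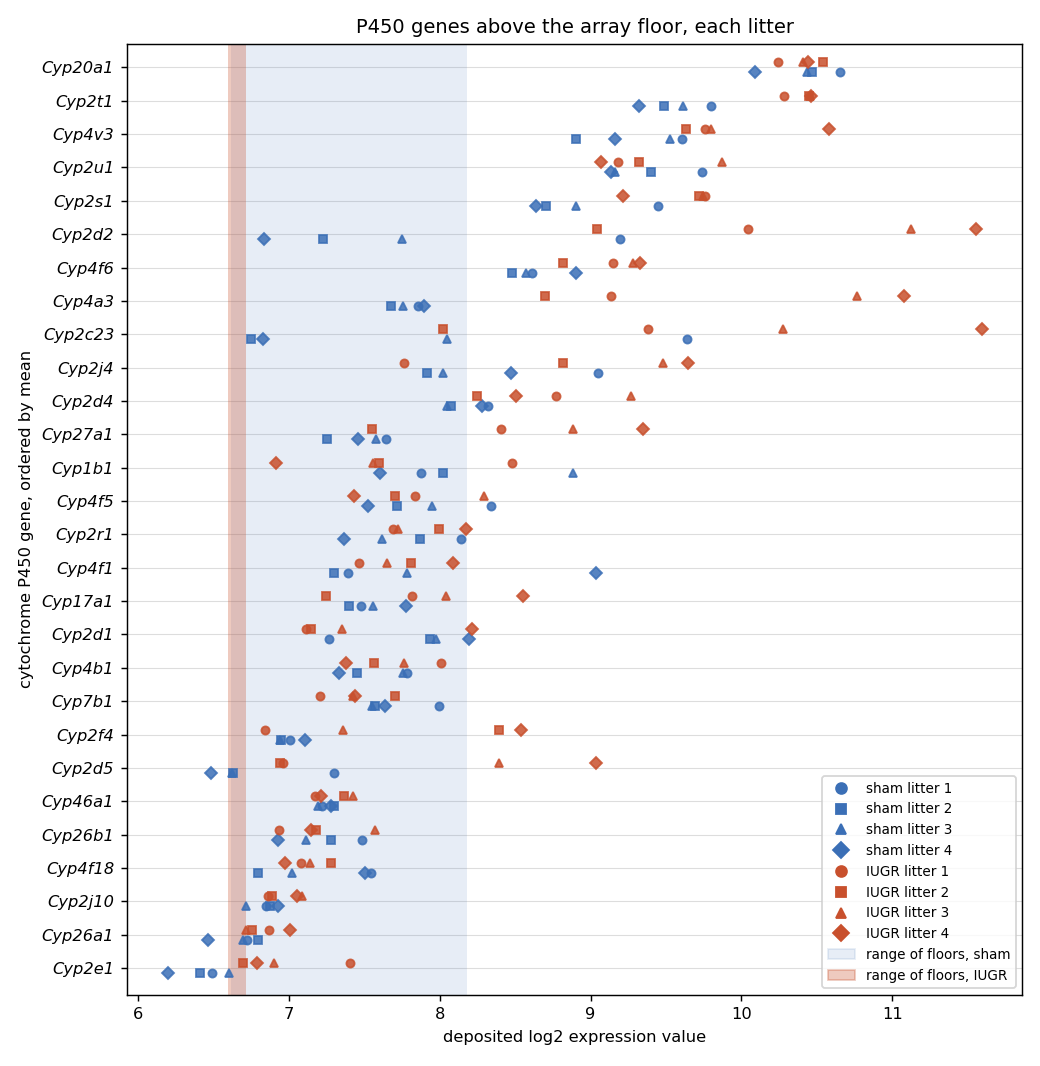
Deposited log2 value (x axis) of each of the 28 P450 genes above the floor (y axis, ordered by mean), with 1 point per litter, 4 sham in blue and 4 IUGR in red, and shaded bands for the range of array floors in each group. Cyp2t1 and Cyp4a3 had all IUGR points to the right of the sham points, whereas Cyp20a1 and Cyp2u1 overlapped, and Cyp2d2 and Cyp2c23 spread over several log2 units within each group.

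Between IUGR and sham litters the question was which P450 genes differed 1 day after surgery. Cyp2t1, a member of the Cyp2 family, rose in IUGR islets and was the only P450 gene past the threshold (limma, adjusted p under 0.05 over all genes). Its values were 9.80, 9.49, 9.61 and 9.32 in sham litters 1 to 4 and 10.28, 10.45, 10.46 and 10.46 in IUGR litters 1 to 4. Every IUGR litter lay above every sham litter. The rise was 0.86 ± 0.11 (SE, n = 4 per group; 1.81-fold, adjusted p = 0.043, limma). With 1 of 68 P450 genes called, against 0.248% of all genes in either direction (0.234% higher and 0.0138% lower), a count of 1 says little about the family. The call did not hold when other litters were left out in turn. Cyp2t1 passed without sham litter 1 (0.94) or sham litter 4 (0.78), and missed the threshold without sham litter 2 (0.83, limma adjusted p = 0.146), sham litter 3 (0.87, 0.136), IUGR litter 1 (0.90, 0.126), IUGR litter 2 (0.84, 0.054), IUGR litter 3 (0.84, 0.102) or IUGR litter 4 (0.84, 0.083). Cyp2t1 was also 0.66 after cyclic loess (adjusted p = 0.051), 0.65 after quantile normalization (adjusted p = 0.096) and 0.63 after median centring (adjusted p = 0.093, limma). It was 0.59 ± 0.15 with the hepatocyte list mean as a covariate (SE, adjusted p = 0.886, limma). No gene at all passed with that covariate (lowest adjusted p = 0.529, limma), so a miss there is not particular to any gene. The hepatocyte mean itself averaged 9.77 in sham and 11.55 in IUGR litters (exact permutation p = 0.057).

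Over all 68 genes, 30 were higher and 38 lower in IUGR, with a median difference of -0.03 (0.04 over all genes tested). At an unadjusted p under 0.05 there were 15 (11 higher and 4 lower), against 26.1% of all genes (15.4% higher and 10.7% lower). The groups did not overlap in 4 higher genes, Cyp2t1, Cyp4a3, Cyp4v3 and Cyp2e1, against 10.0% of all genes, and in 3 lower genes, Cyp2a3, Cyp2b3 and Cyp24a1, against 5.45%. Only the 11 higher genes at an unadjusted p under 0.05 made a larger share than over all genes, and by little. The other shares were smaller than over all genes. The 28 genes above the floor had a median of 0.26 and the 40 others a median of -0.12. Because the first passed through the IUGR litters, that contrast is partly set by the filter. Olfactory receptor genes (Olr) differed by a median of -0.35, with 51 of 53 lower, and the part of the arrays' signal range in the lower P450 values was not tested. The 3 lower P450 genes without overlap were all at or below the floor.

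Of the fits that left out 1 litter, the one without sham litter 1 moved the number of P450 calls most. In it 11 P450 genes passed (limma), against 18.9% of all genes. In the higher direction 4 passed, Cyp2d2 (3.17), Cyp4a3 (2.14), Cyp2s1 and Cyp2t1, against 9.29% of all genes. The 7 lower ones, Cyp1a2, Cyp2b3, Cyp2c11, Cyp2c6v1, Cyp2g1, Cyp4a1 and Cyp4a8, were all below the floor. Over all genes 2738 passed in this fit, only 1347 of them higher, so the 7 say little about the family. Without sham litter 4, 1 P450 gene passed, against 1.08% of all genes. With any other single litter left out no P450 gene passed (limma), while 2628 to 2909 of all genes had an unadjusted p under 0.05.

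**Figure D2:**
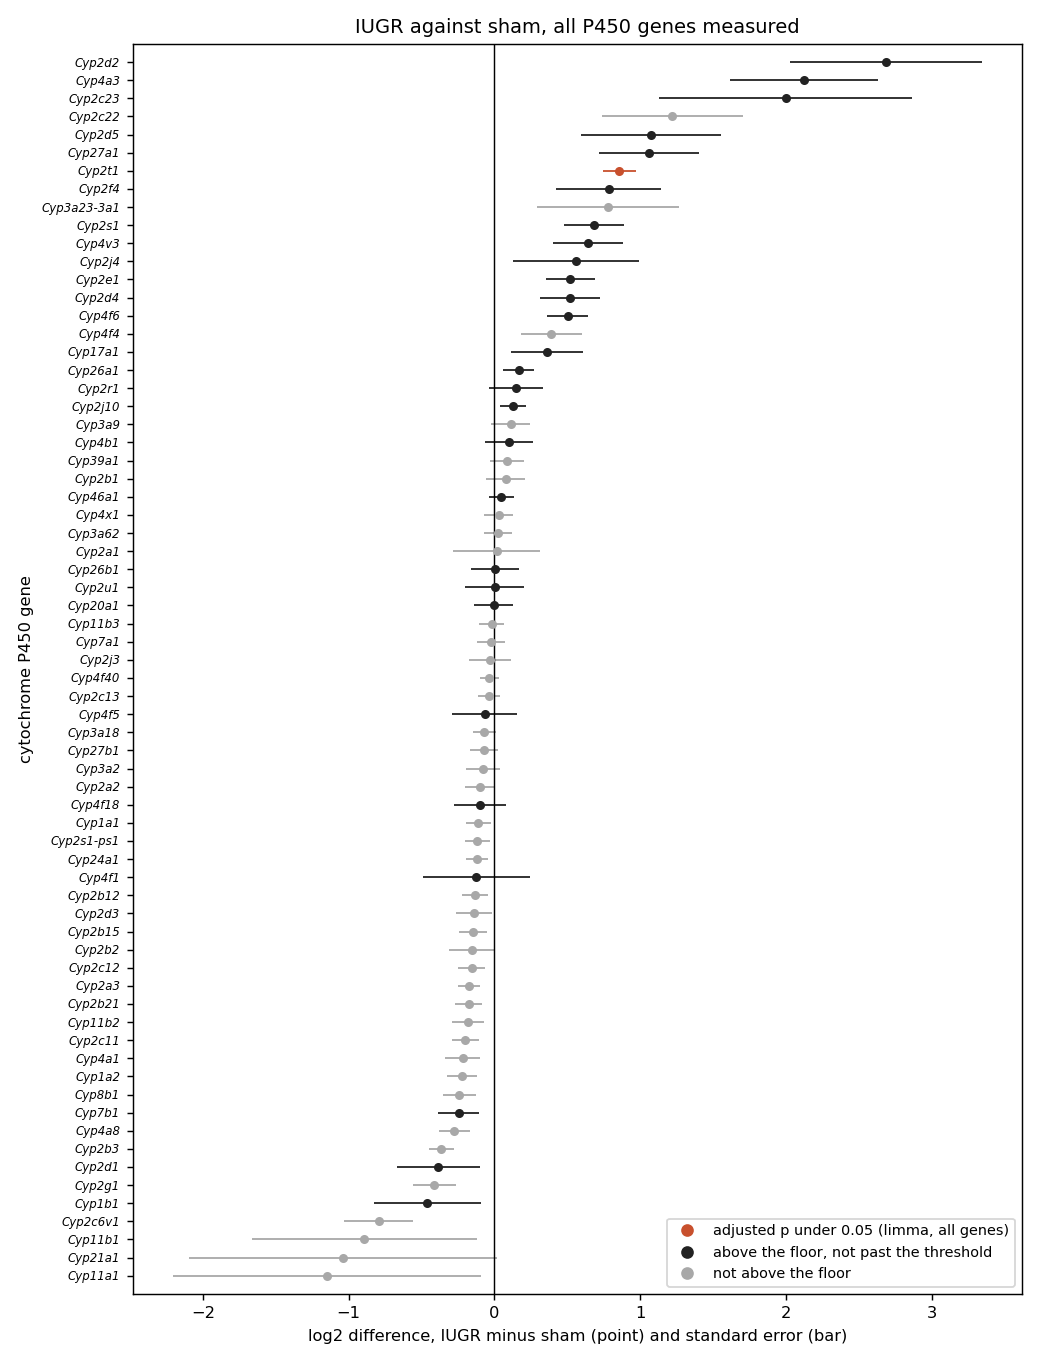
Log2 difference, IUGR minus sham (x axis), with its standard error (bar) for each of the 68 P450 genes (y axis, ordered by difference). Cyp2t1 (red) was the only gene past the threshold, Cyp2d2, Cyp4a3 and Cyp2c23 had larger differences with larger errors, and the genes below the floor (grey) lay mostly on the negative side.

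Among the drug-metabolising genes, Cyp2d2 had the largest difference. Its enzyme belongs to the rat Cyp2d group, which oxidises many basic drugs. Cyp2d2 was 9.20, 7.22, 7.75 and 6.84 in sham litters 1 to 4 and 10.04, 9.04, 11.12 and 11.56 in IUGR litters 1 to 4. The groups overlapped, since sham litter 1 lay above IUGR litter 2. The difference was 2.69 ± 0.66 (SE, n = 4 per group, 6.45-fold) and did not pass (adjusted p = 0.099, limma). With the hepatocyte list mean as a covariate, a fit in which no gene passed, it was 0.45 ± 0.48 (SE, adjusted p = 0.999, limma). Cyp2c23, an epoxygenase of arachidonic acid in rat liver and kidney, was 9.64, 6.75, 8.05 and 6.83 in sham litters 1 to 4 and 9.38, 8.02, 10.27 and 11.59 in IUGR litters 1 to 4. Sham litter 1 exceeded IUGR litters 1 and 2. The difference was 2.00 ± 0.87 (SE, adjusted p = 0.190, limma) and was -1.0 ± 0.58 with that covariate, so its direction turned.

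Other Cyp2d and Cyp2c genes were uneven. Cyp2d5 was 7.30, 6.63, 6.62 and 6.48 in sham litters and 6.96, 6.94, 8.39 and 9.03 in IUGR litters, a difference of 1.07 that did not pass (adjusted p = 0.200, limma). IUGR litters 3 and 4 alone lay above all sham litters. Cyp2c22 was at most 6.48 in sham litters and was 8.28, 6.03, 7.31 and 8.46 in IUGR litters, so 1 IUGR litter was below every sham litter (difference 1.22, adjusted p = 0.165). Cyp3a23-3a1, a pregnane X receptor target, was between 5.95 and 6.41 in sham litters and 6.86, 5.77, 6.72 and 8.47 in IUGR litters (difference 0.78, adjusted p = 0.329). Cyp2c22 and Cyp3a23-3a1 were below the floor in IUGR litter 2 and lay outside the rule for named genes. They were chosen after their values were seen. Cyp2d1 ran the other way, at -0.39. The Cyp2c, Cyp2d, Cyp2b and Cyp4a genes have close paralogs whose transcripts may share probes, so the value of a single member of these groups is uncertain.

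Cyp2s1, an enzyme of epithelia outside the liver, was 9.45, 8.70, 8.91 and 8.64 in sham litters and 9.76, 9.72, 9.74 and 9.21 in IUGR litters. The groups overlapped only through sham litter 1 and IUGR litter 4, and the difference was 0.68 ± 0.20 (SE, adjusted p = 0.126, limma). Cyp2d4 differed by 0.52 (adjusted p = 0.166) and Cyp2e1 by 0.52 (adjusted p = 0.133). Cyp2f4, a lung enzyme that activates naphthalene, was between 6.94 and 7.10 in sham litters and was 6.84, 8.39, 7.36 and 8.54 in IUGR litters. IUGR litters 2 and 4 were high and litter 1 was below the sham litters (difference 0.78, adjusted p = 0.206). Cyp2j10 differed by 0.13 and Cyp2u1, a fatty acid hydroxylase, by 0.00 ± 0.20 (SE). Cyp2j3, below the floor, differed by -0.03. Cyp1b1, which oxidises oestrogens and aromatic hydrocarbons outside the liver, was 7.88, 8.02, 8.88 and 7.60 in sham litters and 8.48, 7.60, 7.55 and 6.91 in IUGR litters. Its highest value was in sham litter 3 and its lowest in IUGR litter 4, and the groups overlapped (-0.46 ± 0.37, SE, adjusted p = 0.437). Without sham litter 3 the Cyp1b1 difference was -0.20, and without IUGR litter 1 it was -0.74. Cyp1a1 differed by -0.11, Cyp1a2 by -0.22 and Cyp3a9 by 0.11, all 3 below the floor.

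Of the fatty acid genes, Cyp4a3 separated the groups. It encodes a hydroxylase of fatty acids and is a known target of the receptor Ppara. Cyp4a3 was 7.85, 7.68, 7.76 and 7.90 in sham litters 1 to 4 and 9.14, 8.70, 10.77 and 11.08 in IUGR litters 1 to 4. The sham litters lay within a narrow range and every IUGR litter was above it. The difference was 2.12 ± 0.51 (SE, 4.36-fold) and did not pass (adjusted p = 0.096, limma). It was 1.21 ± 0.78 (SE) with the hepatocyte list mean as a covariate. Its neighbours in the subfamily, Cyp4a1 and Cyp4a8, were below the floor in every litter, between 5.67 and 6.33. Cyp4v3, a fatty acid hydroxylase, was 9.61, 8.91, 9.53 and 9.16 in sham litters and 9.76, 9.63, 9.80 and 10.58 in IUGR litters. The lowest IUGR litter was barely above the highest sham litter, and the difference was 0.64 ± 0.24 (SE, adjusted p = 0.152, limma). With the covariate the Cyp4v3 difference was -0.04. Cyp4f6 was 8.61, 8.48, 8.57 and 8.90 in sham litters and 9.15, 8.82, 9.28 and 9.33 in IUGR litters (difference 0.50 ± 0.14, SE, adjusted p = 0.120). Sham litter 4 lay above IUGR litter 2. Over the 12 Cyp4 genes 6 were higher and 6 lower, with a median of 0.00.

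Among the bile acid and oxysterol genes, Cyp27a1, the mitochondrial sterol hydroxylase that starts the acidic pathway of bile acid synthesis, was 7.65, 7.25, 7.58 and 7.46 in sham litters and 8.40, 7.55, 8.89 and 9.35 in IUGR litters. IUGR litter 2 lay within the sham range and the other 3 above it. The difference of 1.06 ± 0.34 (SE) did not pass (adjusted p = 0.134, limma), and with the hepatocyte list mean as a covariate it was 0.23 ± 0.45 (SE). Cyp7b1, an oxysterol hydroxylase, differed by -0.24 and Cyp46a1, the cholesterol hydroxylase known from brain, by 0.05. Cyp8b1 (-0.24), Cyp39a1 (0.09) and Cyp7a1 (-0.02) were below the floor. The vitamin D gene Cyp2r1, whose enzyme makes the circulating form of vitamin D, was above the floor and differed by 0.15. Cyp27b1 and Cyp24a1, which activate and degrade that form, were below it and differed by -0.07 and -0.12. The retinoic acid hydroxylases Cyp26a1 (0.17) and Cyp26b1 (0.01) did not pass either. Cyp20a1 was 10.66, 10.47, 10.43 and 10.09 in sham litters and 10.24, 10.54, 10.41 and 10.44 in IUGR litters, a difference of -0.01 ± 0.13 (SE).

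The steroid hormone genes showed a pattern of a single litter. Cyp11a1, the mitochondrial enzyme that cuts the side chain of cholesterol, was 11.26 in sham litter 3 and between 6.21 and 6.71 in the other 7 litters. Cyp21a1, which encodes the adrenal steroid hydroxylase of glucocorticoid and aldosterone synthesis, was 10.75 in that litter and between 5.77 and 6.17 elsewhere. Cyp11b1, which completes glucocorticoid synthesis, was 9.65 there and between 5.85 and 6.37 elsewhere. Cyp11b1 was outside the rule for named genes and chosen after its values were seen. Sham litter 3 thus exceeded the median of the other 7 by 4.94 in Cyp11a1, 4.83 in Cyp21a1 and 3.57 in Cyp11b1. Cyp11b2, which makes aldosterone, was 6.57 in that litter and at most 6.46 in the others, and Cyp11b3 was 6.06. The Cyp11b genes are close paralogs. Cyp17a1, the steroid hydroxylase and lyase of gonadal steroid synthesis, was the 1 steroid gene above the floor by the rule and was not high in sham litter 3 (7.56, against 7.25 to 8.55 in the others). Its difference between groups was 0.36 ± 0.25 (SE, adjusted p = 0.371, limma).

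These 3 genes differed between groups by -1.15 ± 1.06 (Cyp11a1), -1.04 ± 1.06 (Cyp21a1) and -0.89 ± 0.77 (Cyp11b1, SE), none past the threshold (limma). Without sham litter 3 the differences were 0.08, 0.19 and 0.00, so the negative difference was not seen without that litter. Some partner genes of the adrenal cortex were high in the same litter. Star, which carries cholesterol into mitochondria, was 10.69 there and between 6.42 and 7.06 elsewhere. Mc2r, the receptor for corticotropin, was 8.46 (6.44 to 7.32 elsewhere) and Fdx1 was 9.25 (7.74 to 8.88 elsewhere). Mrap and Scarb1 exceeded the highest other litter by 0.42 and 0.27 and Hsd3b2 by 0.02, while Inha was 7.16, within the range of the others (7.07 to 7.80). Of 9 listed markers of steroid-making cells 7 were measured, and their mean was 8.66 in sham litter 3 against 7.40 to 7.72 in the other sham and 7.41 to 7.53 in the IUGR litters. None of the 7 passed between groups after adjustment (limma), 2 had an unadjusted p under 0.05 and 2 were higher in IUGR. In that litter 28 of the 14506 genes lay at least 1 log2 unit above all 7 other litters, and the same count ran from 2 to 86 in the others. Among the 28, ranked by the gap, Cyp21a1 and Cyp11a1 were the second and the third. Th, of catecholamine synthesis, also stood out (10.16), and so did cartilage genes such as Epyc (10.82), Acan (9.72) and Col2a1 (10.14). The part of other tissues in this litter was not tested.

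**Figure D3:**
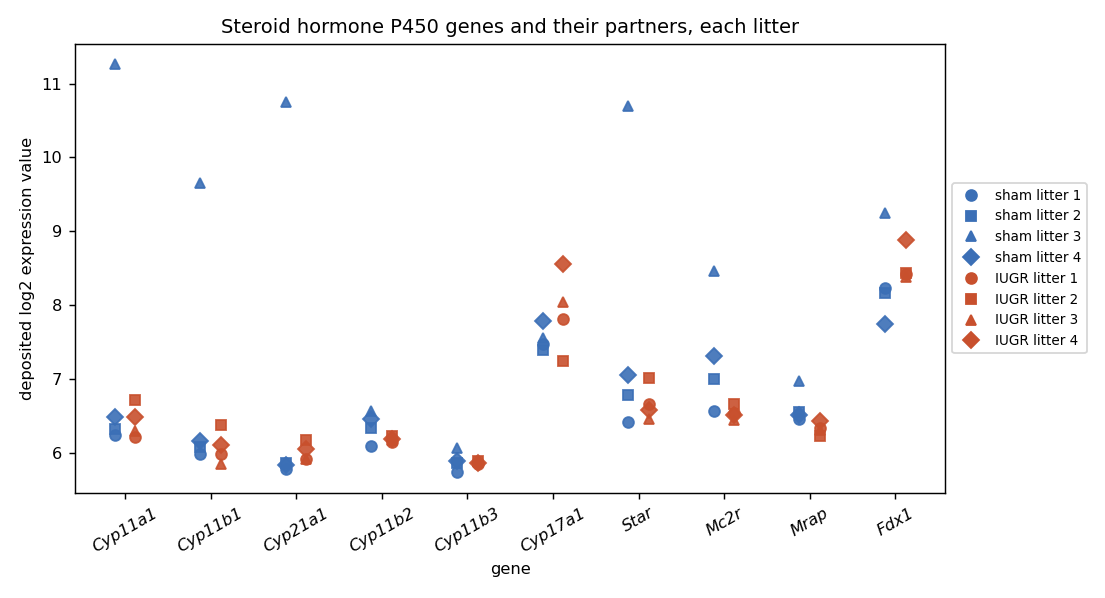
Deposited log2 value (y axis) of 6 steroid hormone P450 genes and 4 partner genes (x axis), with 1 point per litter, sham in blue and IUGR in red. Sham litter 3 (blue triangle) reached 11.26 in Cyp11a1, 10.75 in Cyp21a1, 9.65 in Cyp11b1 and 10.69 in Star, while the other 7 litters stayed at or under 7.06 in these 4 genes.

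The bases before the start of Cyp21a1 are shown because AAGGTCA, the letters bound by steroidogenic factor 1, occurs there. Capitals mark that motif and AAAGTCC (here on the other strand, as GGACTTT). The sequence is RefSeq's for build GRCr8, chr20:4028166-4028265 on the plus strand, from base -225 to base -126 before the start of the gene, written 5′ to 3′.
Cyp21a1: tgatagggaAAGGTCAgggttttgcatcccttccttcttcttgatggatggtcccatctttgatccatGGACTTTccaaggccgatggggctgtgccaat
Steroidogenic factor 1 itself (Nr5a1) was not analysed here. AAGGTCA was found within the 250 bases before the start in 3.77% of 27457 rat promoters and in 4 of the 54 P450 genes with a promoter window: Cyp21a1, Cyp2u1, Cyp27a1 and Cyp3a2. Of these 4, Cyp21a1 was the one high in sham litter 3. Cyp11a1 and Cyp11b1, also high in that litter, were not among the 4. The motif was chosen after the data were seen. A match is a description of letters and not of binding.

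The P450 genes were set against Alb and against the whole hepatocyte list. Over the 8 litters, no P450 gene passed with Alb by Pearson's r or by Spearman's rho after adjustment over all genes but Alb, and 0 genes of all passed. At an unadjusted permutation p under 0.05 there were 12 of 68 P450 genes by r and 15 by rho, against 4226 and 2442 of the 14506 genes. The share of P450 genes was thus smaller than that of all genes by r and larger by rho. Of the 12 by r, 4 were above the floor, all with positive r, and 8 were not, all with negative r, such as Cyp24a1 (-0.81) and Cyp1a2 (-0.65). Of the 15 by rho, 12 were positive, 10 of them above the floor. Cyp2d2 had r = 0.73 with Alb (permutation p = 0.013, adjusted p = 0.106) and rho = 0.93 (permutation p = 0.0022, adjusted p = 0.130). Without the 2 litters farthest from the median of Alb, sham 2 and sham 4, its r was 0.83, and within groups it was 0.58. Cyp2s1 had r = 0.75 (adjusted p = 0.080), which was 0.45 without those litters. Cyp2t1 had r = 0.74 (permutation p = 0.0022, adjusted p = 0.080), which was 0.48 without them. Over all 68 P450 genes the median r was -0.099, with 30 positive, against a median of 0.12 over the 14506 genes. The 28 genes above the floor had a median of 0.44 and the other 40 one of -0.47, a split that supports nothing, since the 28 passed through the IUGR litters, where Alb was high. Olfactory receptor genes (Olr) had a median of -0.61. Alb lay near the top of the scale in 6 of 8 litters, and those 6 spanned only 13.78 to 13.98.

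With the mean of the 24 hepatocyte genes, which spread over a wider range, 4 of the 68 P450 genes passed by Pearson's r. The test permuted all 40320 orders of the litters and was adjusted over the genes outside the list. Of the 14506 genes, the 24 listed ones left out, 920 passed. The share of P450 genes was near that share, so the count says little about the family. Cyp2d2 had r = 0.97 (adjusted p = 0.029) and rho = 1.00 (adjusted p = 0.018), with the 8 litters in the same order on both measures. Its r was 0.91 within groups and 0.98 without sham litters 2 and 4. Cyp2c23 had r = 0.94 (adjusted p = 0.035), 0.93 within groups and 0.90 without those litters, and rho = 0.93 (adjusted p = 0.081). Cyp4v3 had r = 0.90 (adjusted p = 0.034), 0.79 within groups and 0.84 without those litters. Cyp2t1 had r = 0.90 (adjusted p = 0.038), 0.77 within groups and 0.75 without them. By rho Cyp2d2 alone passed, as did 132 of all genes. Cyp27a1 (r = 0.86), Cyp4a3 (0.82) and Cyp2d5 (0.81) did not pass. An r over 0.8 occurred in 7 of 68 P450 genes (10.3%) and in 11.3% of all genes, so the share in the family was near the background. Cyp20a1 (0.31), Cyp2u1 (0.17) and Cyp46a1 (-0.05) showed little relation, and Cyp1b1 was at -0.28. The groups differ in the hepatocyte mean, so a relation over all 8 litters also carries the difference between groups. Within the litters of a group it rests on 4 points each.

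**Figure D4:**
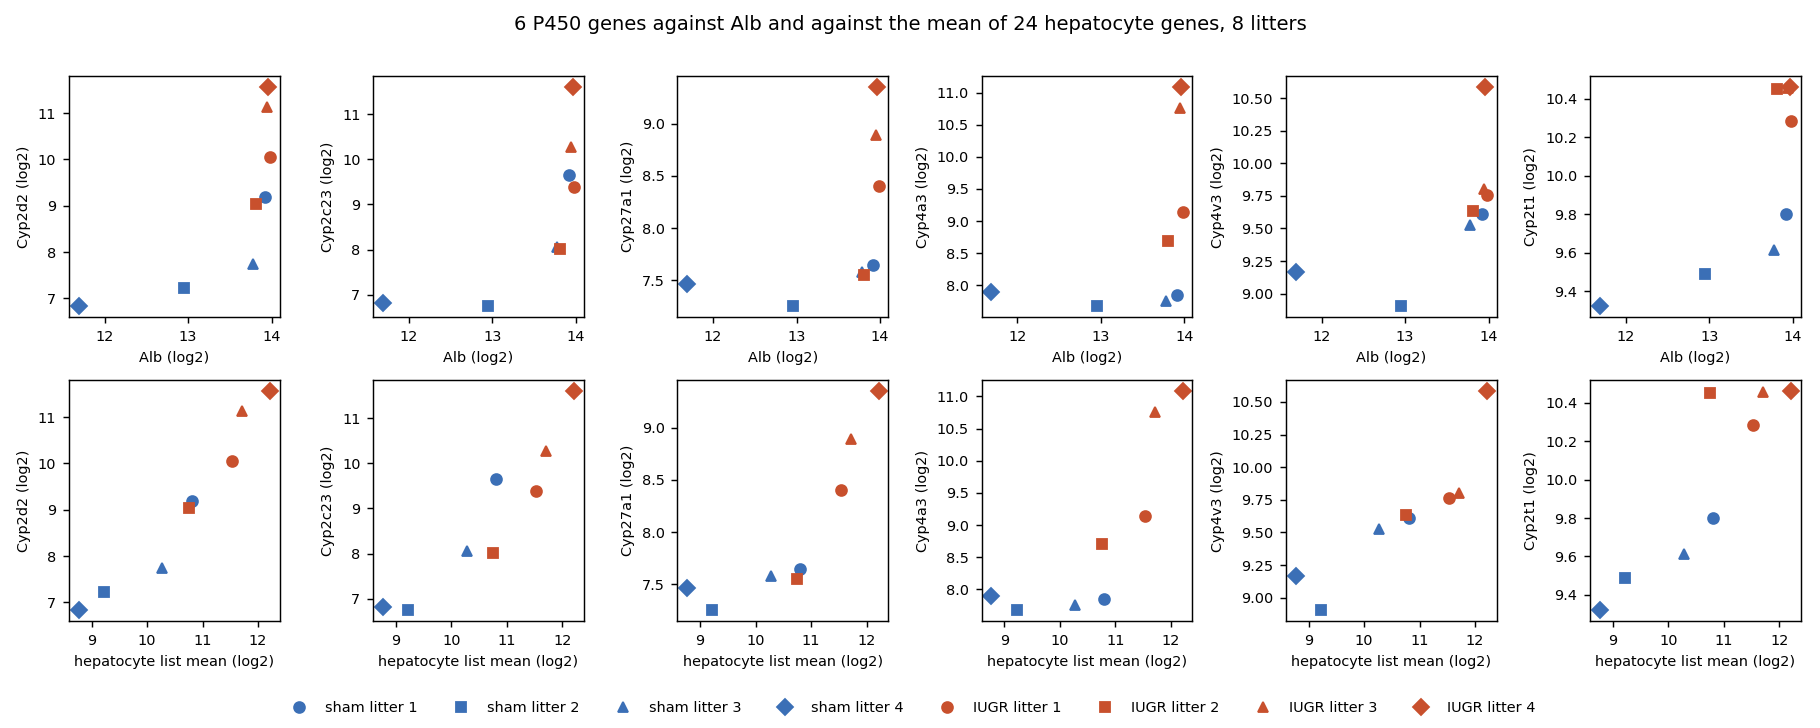
Deposited log2 values of 6 P450 genes (y axes) against Alb (upper row) and against the mean of 24 hepatocyte genes (lower row), 8 litters, sham in blue and IUGR in red. Alb was bunched near 14 in most litters, while Cyp2d2 rose with the hepatocyte mean in the same order over all 8 litters, and Cyp4a3 stayed flat over the 4 sham litters.

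The bases before the start of 3 of these genes are shown, since they hold (Cyp2d2) or lack (Cyp2c23 and Cyp2t1) the motif letters of 2 liver factors. The searched letters were GTTAAT for HNF1 and AAAGTCC for HNF4, on both strands. Capitals mark them, here on the other strand (ATTAAC and GGACTTT). Sequences are RefSeq's for GRCr8, from base -100 to base -1 before the start, at chr7:115819282-115819381 (minus strand) for Cyp2d2, chr1:252863068-252863167 (minus strand) for Cyp2c23 and chr1:91575410-91575509 (plus strand) for Cyp2t1, each written 5′ to 3′ along the gene.
Cyp2d2: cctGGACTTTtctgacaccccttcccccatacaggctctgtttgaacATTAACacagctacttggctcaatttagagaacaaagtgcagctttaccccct
Cyp2c23: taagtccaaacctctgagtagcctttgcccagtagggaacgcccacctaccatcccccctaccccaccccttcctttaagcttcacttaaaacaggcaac
Cyp2t1: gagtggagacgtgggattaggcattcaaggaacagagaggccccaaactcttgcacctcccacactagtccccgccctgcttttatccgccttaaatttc
Cyp2d2 had AAAGTCC from base -97 to base -91 and GTTAAT from base -53 to base -48. In the 250 bases before the start, taking the first window listed for each gene, GTTAAT was found in 4 of the 54 P450 windows (6.46% of all 27457 promoters), AAAGTCC in 7 of 54 (4.02%) and GCGTG, the core of the element bound by the aryl hydrocarbon receptor, in 15 of 54 (27.2%). Among the 25 genes above the floor with a window these numbers were 2, 2 and 11. Cyp4f18, also above the floor, had AAAGTCC in another listed window that was not counted. GCGTG was found in Cyp2t1 from base -151 to base -147, and also in Cyp1b1, Cyp20a1, Cyp2u1, Cyp26a1 and Cyp26b1. The motifs do not overlap one another in the stretches shown. The absence of letters from a window says nothing about a factor.

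Hnf4a and Nr1h4, regulators of liver P450 genes, rose in IUGR islets. Of 23 listed nuclear receptors and other factors 21 were measured, 2 rose and 0 fell (limma), against 0.248% of all genes called. The list was higher in 17 of 21, with a median of 0.58, and 13 had an unadjusted p under 0.05 (limma), against 26.1% of all genes. Nr1h4, the bile acid receptor FXR, was 7.04, 7.22, 7.02 and 7.29 in sham litters and 8.38, 7.92, 7.93 and 8.19 in IUGR litters, a rise of 0.96 ± 0.13 (SE, adjusted p = 0.043, limma). Hnf4a, a nuclear receptor of hepatocytes that is also expressed in pancreas, was 9.28, 9.82, 9.37 and 9.27 in sham litters and 11.40, 10.54, 10.91 and 11.36 in IUGR litters, a rise of 1.61 ± 0.22 (SE, adjusted p = 0.043, limma). The groups did not overlap in either gene. With the hepatocyte list mean as a covariate Nr1h4 was 1.05 and Hnf4a 1.45. No gene at all passed in that fit (lowest adjusted p = 0.529, limma), so their miss there is not particular to them. Pearson's r with that mean was 0.71 for Nr1h4 and 0.79 for Hnf4a over all litters. Within groups it was -0.22 and 0.21. Both missed the threshold without sham litter 2 (0.99 and 1.74), sham litter 3 (0.92 and 1.59), IUGR litter 1 (0.87 and 1.50), IUGR litter 3 (1.02 and 1.66) or IUGR litter 4 (0.94 and 1.51), Nr1h4 first, with limma adjusted p-values from 0.083 to 0.146.

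Nr1i2, the pregnane X receptor that induces Cyp3a genes, was 6.81, 7.00, 6.85 and 7.00 in sham litters and 8.58, 7.38, 8.28 and 8.65 in IUGR litters (difference 1.31 ± 0.26, SE, adjusted p = 0.075, limma). The groups did not overlap. None of the Cyp3 genes was above the floor in all 4 IUGR litters, and Cyp3a23-3a1 exceeded it in 3 of them. Ppara, the fatty acid receptor upstream of Cyp4a genes, differed by 2.05 ± 0.45 (SE, adjusted p = 0.080), and Foxa3 by 1.52 (adjusted p = 0.070). Ahr, the aryl hydrocarbon receptor, differed by 0.13, Nr1i3, the androstane receptor that induces Cyp2b genes, by -0.12 and Nr0b2 by 0.58. Nfe2l2, a regulator of antioxidant genes, differed by 0.58 (adjusted p = 0.072, limma). Pearson's r with the hepatocyte mean was 0.97 for Ppara, 0.94 for Nfe2l2, 0.93 for Foxa3, 0.83 for Nr0b2 and 0.80 for Nr1i2. Within groups these were 0.93, 0.87, 0.79, 0.55 and 0.35. For Ahr r was 0.15 and for Nr1i3 -0.46, with -0.16 and -0.18 within groups.

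Of the partner lists, none had a member past the threshold (limma). At an unadjusted p under 0.05 there were 2 of 8 redox partners, 1 of 8 haem synthesis genes, 10 of 20 phase 2 enzymes and 6 of 13 partners in steroid and bile acid metabolism, against 26.1% of all genes. Among the redox partners 8 were measured and all 8 were higher, by a median of 0.27. Por was 10.39, 10.07, 10.20 and 10.24 in sham litters and 10.43, 10.53, 10.71 and 10.54 in IUGR litters, apart by a small margin (difference 0.33 ± 0.10, SE, adjusted p = 0.128). Pgrmc2 differed by 0.34, Cyb5a by 0.40 and Fdx1 by 0.18. Of 8 haem synthesis genes 4 were higher, with a median of -0.04. Alas1, the rate-limiting enzyme of haem synthesis outside red cells, differed by 0.71 and Fech by -0.67. Erythroid markers were lower in 8 of 8 in IUGR, and their part in the haem genes was not tested. Phase 2 enzymes, which conjugate P450 products, were higher in 10 of 20, with a median of 0.04. Of these 20 genes 9 were above the floor. Gsta3 differed by 1.83 (adjusted p = 0.096) and Sult2a2 by -1.28 (adjusted p = 0.119, limma). Sult2a2 was below the floor in every litter. It was 5.86, 7.56, 6.97 and 7.54 in sham litters 1 to 4 and 5.92, 5.65, 5.64 and 5.62 in IUGR litters 1 to 4. Of 13 partners in steroid and bile acid metabolism 10 were higher, with a median of 0.27. Akr1c14 differed by 2.37 (adjusted p = 0.102), Hsd17b4 by 0.63 and Star by -1.06. The last was -0.08 without sham litter 3. Acinar markers were higher in 15 of 15 (median 1.09) and duct markers in 9 of 10 (median 0.86) in the same IUGR litters. The duct marker Krt8 passed the threshold (1.07, adjusted p = 0.043, limma), and no acinar marker did. Intestinal epithelium markers were higher in 7 of 9 (median 0.97), and their mean was highest in IUGR litter 1 (10.57). Mesenchyme markers were lower in 12 of 12 (median -0.65) and macrophage markers in 12 of 12 (median -0.57). The part of these cell types in the P450 differences was not tested.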

How the data were processed

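Gene expression was measured on 8 Affymetrix arrays, 4 sham and 4 IUGR litters. Per the submitters' processing notes the authors used RMA, and the deposited table is on a log2 scale. Version and probe filters are not stated in them. Of 29214 probe sets, 15310 named 1 gene, 323 several and 13581 none in the platform annotation. The brightest probe set per gene was kept (527 genes had several), leaving 14506 genes.

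Values were tested as deposited with limma 3.58.1 in R 4.3.3 (lmFit, eBayes, 2 groups, no covariate), with Benjamini-Hochberg adjustment over 14506 genes and a threshold of 0.05. Counts over lists carry no test. The steps were tested on simulated data. Correlations over 8 litters used permutation p-values, adjusted over all genes.

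The members, lists and alternatives were chosen with earlier results of these data known. Members named were those past the threshold, the 16 above the floor with the smallest p, the 8 with the highest mean, 24 fixed names and the 2 genes on each side of the floor (34 in all). From the partner lists, fixed names and at most 2 further genes a list were named. Values of Cyp2c11, Cyp3a2, Cyp2d1, Cyp4a1, Cyp4a8, Cyp11b2, Cyp11b3 and Ppara were also given, outside these rules.

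Alternatives were quantile normalization, median centring, cyclic loess, a trended robust prior, array weights, the dimmest 30% left out, all probe sets, probe sets averaged per gene, Alb or the hepatocyte list mean as a covariate, the replicate number as a block, other floors, and each litter left out in turn. The floors from all olfactory and from vomeronasal receptor genes, floors with litters left out and the motif AAGGTCA were chosen after seeing the data. A planned search for the haem-binding signature in proteins was not run. Precision is limited by the number of litters, as arrays carry no depth.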

Additional observations from a re-analysis of the deposited data

Results flagged for a closer look

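In 114 groups of 4 litters (57 genes, 34 of them by the rule and Cyp11b1, Cyp2c22 and Cyp3a23-3a1 added), a litter stood far from the other 3 of its group in 12. Chance gives about 1 such group in 20. Sham litter 3 was high in Cyp11a1 (11.26, other sham litters 6.24 to 6.48), Cyp21a1 (10.75, others 5.77 to 5.86), Cyp11b1 (9.65, others 5.99 to 6.16) and Star (10.69, others 6.42 to 7.06). Sham litter 4 was low in Nr0b2 (6.81, others 7.23 to 7.26), Alas1 (10.23, others 11.16 to 11.32) and Gsta3 (5.69, others 7.16 to 7.21). Sham litter 1 was low in Cyp1a2 (6.55, others 6.87 to 6.89). IUGR litter 1 was low in Cyp2t1 (10.28, others 10.45 to 10.46) and high in Sult2a2 (5.92, others 5.62 to 5.65). IUGR litter 4 was low in Cyp2s1 (9.21, others 9.72 to 9.76) and high in Fdx1 (8.88, others 8.38 to 8.44).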

How the results depend on the processing

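Of 19 alternatives, the count of genes called (36, 1 of them a P450 gene, limma) held within 1.5 times with all probe sets (35), the mean of the probe sets of a gene (35) and the trended robust prior (30), the last with 0 P450 genes, and without IUGR litter 2 (43, with 0 P450 genes and 21 of the 36 shared). It was 59, with Cyp2t1 the 1 P450 gene, without the dimmest 30% of genes. With array weights 6358 genes and 32 P450 genes passed (9 higher and 23 lower). With Alb as a covariate 1 gene and 0 P450 genes passed (2132 at an unadjusted p under 0.05), and after median centring 1 and 0 (5133 such genes). The count was 0 after quantile normalization (3305), cyclic loess (3290) and with the hepatocyte list mean as a covariate (530), each with 0 P450 genes. The replicate numbers did not pair the litters (correlations of same-numbered deviations -0.43, 0.10, -0.12 and -0.13), and with the replicate block 0 genes and 0 P450 genes passed (2715). Leaving out 1 litter at a time gave from 0 to 2738 genes and from 0 to 11 P450 genes. The causes were not tested. The median difference of the P450 genes above the floor (0.26) was 0.033 after median centring, which moved the median of all genes from 0.04 to -0.19, -0.026 with the hepatocyte list mean as a covariate and 0.50 without the dimmest 30% of genes, where 23 P450 genes were tested. With 1 litter left out it ran from 0.17 to 0.39. The Alb difference (0.84, adjusted p = 0.258) missed the threshold in all of its 17 alternatives. The number of P450 genes above the floor (28) was 11 with the 99th percentile of Olr genes, 6 with the median of all genes and 6 when all 8 litters had to pass. It was 31 with all olfactory and 41 with vomeronasal receptor genes, and 28 to 30 with a litter left out. The median r with Alb (0.44) was 0.40 after quantile normalization, 0.30 within groups and 0.55 with the hepatocyte list mean in place of Alb, and 0.39 to 0.48 with a litter left out.

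Of 1042 values of 56 named genes, 890 kept direction and side of the threshold, 42 newly passed, 35 no longer passed and 75 changed sign, none of the 75 past the threshold in either fit. With Alb as a covariate Cyp26b1 was -0.14, Cyp27b1 0.014, Cyp2j3 0.064, Cyp2r1 -0.047, Cyp2u1 -0.12, Cyp39a1 -0.020, Cyp7a1 0.047 and Fdx1 -0.19. With array weights Cyp2a1 was -0.43, Cyp2j3 0.15 and Fdx1 -0.60. After cyclic loess Cyp1a1 was 0.094, Cyp24a1 0.036, Cyp27b1 0.025, Cyp2j3 0.12, Cyp2u1 -0.21, Cyp7a1 0.20 and Ahr -0.071. After quantile normalization Cyp1a1 was 0.10, Cyp24a1 0.10, Cyp27b1 0.079, Cyp2j3 0.18, Cyp2u1 -0.23, Cyp7a1 0.17, Fdx1 -0.015, Ahr -0.079 and Nr1i3 0.054. After median centring Cyp26a1 was -0.064, Cyp26b1 -0.22, Cyp2a1 -0.21, Cyp2j10 -0.10, Cyp2r1 -0.082, Cyp2u1 -0.23, Cyp39a1 -0.14, Cyp3a9 -0.12, Cyp46a1 -0.18, Fdx1 -0.049 and Ahr -0.10. With the hepatocyte list mean as a covariate Cyp17a1 was -0.00057, Cyp26a1 -0.0077, Cyp26b1 -0.24, Cyp27b1 0.032, Cyp2a1 -0.31, Cyp2c23 -1.0, Cyp2d5 -0.10, Cyp2j3 0.090, Cyp2r1 -0.20, Cyp2u1 -0.20, Cyp39a1 -0.056, Cyp4v3 -0.044, Cyp3a23-3a1 -0.37, Fdx1 -0.45 and Cyb5a -0.13. With 1 litter left out at a time, sign changes were seen in Cyp20a1 (-0.11 to 0.075), Cyp2j3 (-0.15 to 0.042), Cyp7a1 (-0.077 to 0.025), Cyp26b1 (-0.11 to 0.10), Cyp2u1 (-0.17 to 0.13), Cyp2a1 (-0.27 to 0.16), Cyp11a1 (-1.59 to 0.083), Cyp21a1 (-1.47 to 0.19), Cyp11b1 (-1.22 to 0.0016) and Fdx1 (-0.020 to 0.48).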
